A study of Bos taurus with 10 samples.

Results

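The cadherin superfamily was examined in single bovine early blastocysts, WT and *SOX2* KO. Its members were taken by symbol from the deposited gene table, as every classical, desmosomal, cadherin-related and other gene with a *CDH*, *DSC* or *DSG* symbol, every gene with a *PCDH* symbol, *FAT1* to *FAT4* and *CELSR1* to *CELSR3* with a mean of at least 1 normalized read count over the 10 embryos. The rule took 58 genes of the 20056 that pass the same filter, and no row of the table that matched by symbol was lost to the filter. Of the 58 genes, 46 would have passed on the WT mean alone and 58 on the *SOX2* KO mean alone, so that the filter let in 12 genes through the embryos in which they were higher.

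The 5 WT embryos had been injected as zygotes with mRNA of BE3, a base editor that converts cytosines, and the 5 *SOX2* KO embryos with the same mRNA and sgRNAs for *SOX2*, chosen by the study to create stop codons. All 10 were early blastocysts of day 7.0 by their labels, while the study's text gives a later time of collection than the labels. They were sequenced 1 embryo at a time by Smart-seq2, which amplifies polyadenylated RNA by PCR without molecular identifiers. Embryos carry the names of the deposited columns, nc1 to nc5 for WT and ko1 to ko5 for *SOX2* KO. Both groups share the injection of BE3 mRNA, an uninjected group was not analysed here, and the edits of each embryo are not visible in gene counts. The study reported genotyping each sequenced blastocyst from a part of its cDNA library. It also reported a strongly reduced SOX2 signal by immunostaining of edited blastocysts.

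Cadherins are membrane proteins with repeated extracellular domains that bind calcium and hold neighbouring cells together. Classical cadherins attach through catenins to actin at adherens junctions, and *CDH1* (E-cadherin) is the one known for the compaction of the early embryo and for the epithelial character of the trophectoderm. Desmocollins and desmogleins attach through plakoglobin, plakophilins and desmoplakin to keratin filaments at desmosomes. Protocadherins, FAT proteins and CELSR proteins are larger or more distant relatives with roles in cell recognition and in the polarity of cell sheets.

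Reads on genes numbered 2223670 to 5134855 in WT, against 2578284 to 4337342 in *SOX2* KO embryos, and the ribosomal RNA gene *RN18S1* took 26.4% to 37.0% and 32.5% to 45.0% of them. From 15919 to 18092 genes had a read in WT embryos and from 17987 to 19813 in *SOX2* KO embryos, with ko1 and ko5 at the top. *SOX2* itself had normalized read counts of 56.5 to 93.4 in WT, against 26.4 to 82.1 in *SOX2* KO embryos, and did not pass the test (log2 fold change -0.55, limma adjusted p = 0.167). The RNA level does not show whether a stop codon was made. The defining markers of the blastocyst were present, with a sum over 9 trophectoderm genes of 24610 to 36648 in WT, against 34579 to 48631 in *SOX2* KO embryos. The keratins *KRT8* and *KRT18* made up 89.5% to 93.6% of this sum, and without them it was 2152 to 2854 in WT and overlapped the 2773 to 4657 of *SOX2* KO embryos. The sum over 8 epiblast genes was 1858 to 2275 against 1017 to 1427. *SOX17*, a defining gene of the primitive endoderm, was not analysed here. Because each library is a whole embryo, fewer cells of a type and less RNA per cell cannot be told apart.

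Expression was compared with limma on log2(normalized read count + 1) over all 20056 genes, on which genes with few reads change less than their reads do. A gene was called when its adjusted p (Benjamini-Hochberg) was at most 0.05 and its level differed by 2-fold or more. The p-values set each difference against the spread between single embryos, which limma draws towards that of genes with a like level. All tested genes together had a median shift of 0.25 on the log2 scale. Over all genes with a mean of 1 to under 10, the range of 39 members, the median was 0.93. The changes of the cadherins are to be read relative to the median of their range.

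Of the 58 genes, 14 were called higher in *SOX2* KO embryos and 0 lower. The 14 make up 24.1%, against 8.93% of all tested genes called higher and 1.16% called lower. Of the 14, 6 (*CDH16*, *CDH18*, *CDH22*, *CDHR1*, *CDHR5* and *DSC1*) are among the 12 members with a WT mean under 1, which passed the filter through the *SOX2* KO embryos. Among the 46 members with a WT mean of at least 1, 8 (17.4%) were called higher, against 5.68% of the 16764 genes with such a WT mean. The 14 called members include the desmocollins *DSC1* and *DSC2*, the FAT genes *FAT2* and *FAT3*, and *CELSR2*. The rest of the 14 are the cadherin-related genes *CDHR1*, *CDHR2* and *CDHR5*, the protocadherin *PCDHGA2*, and *CDH4*, *CDH16*, *CDH18*, *CDH22* and *CDH23*. At an unadjusted p of at most 0.05, 27 members were higher and 0 lower, against 24.0% and 8.37% of all genes. On the recovered reads, DESeq2 called 13 members higher (9.13% of all genes) and edgeR 14 (8.41%), and both called 0 lower (1.18% and 1.49% of all genes). The median log2 fold change was 1.03 over the members, or 0.95 with the genes without a WT read set to their bound, and 51 of the 58 (87.9%) lay above 0, against 62.9% of all genes. The filter favoured this sign for the 12 members with a WT mean under 1. Over the other 46 the median was 0.69, against 0.08 over all genes with such a WT mean, and 39 (84.8%) lay above 0, against 55.6%.

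The number of calls depended on the embryo that was left out. It was 15 without nc3 and 15 without ko2 (2041 and 2036 of all genes), and 18 without ko4 (3057 of all genes). Without ko1, 6 members were called higher (4.41% of all genes), without ko5, 5 members (3.84%), and without nc4, 9 members (5.38%). With both ko1 and ko5 left out, an alternative chosen after seeing the data, *DSC2* was the 1 member called, against 1.10% of all genes. *CDH4*, *CDHR5*, *DSC1*, *DSC2* and *FAT3* passed the test in all 10 fits that left out 1 embryo.

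**Figure D1:**
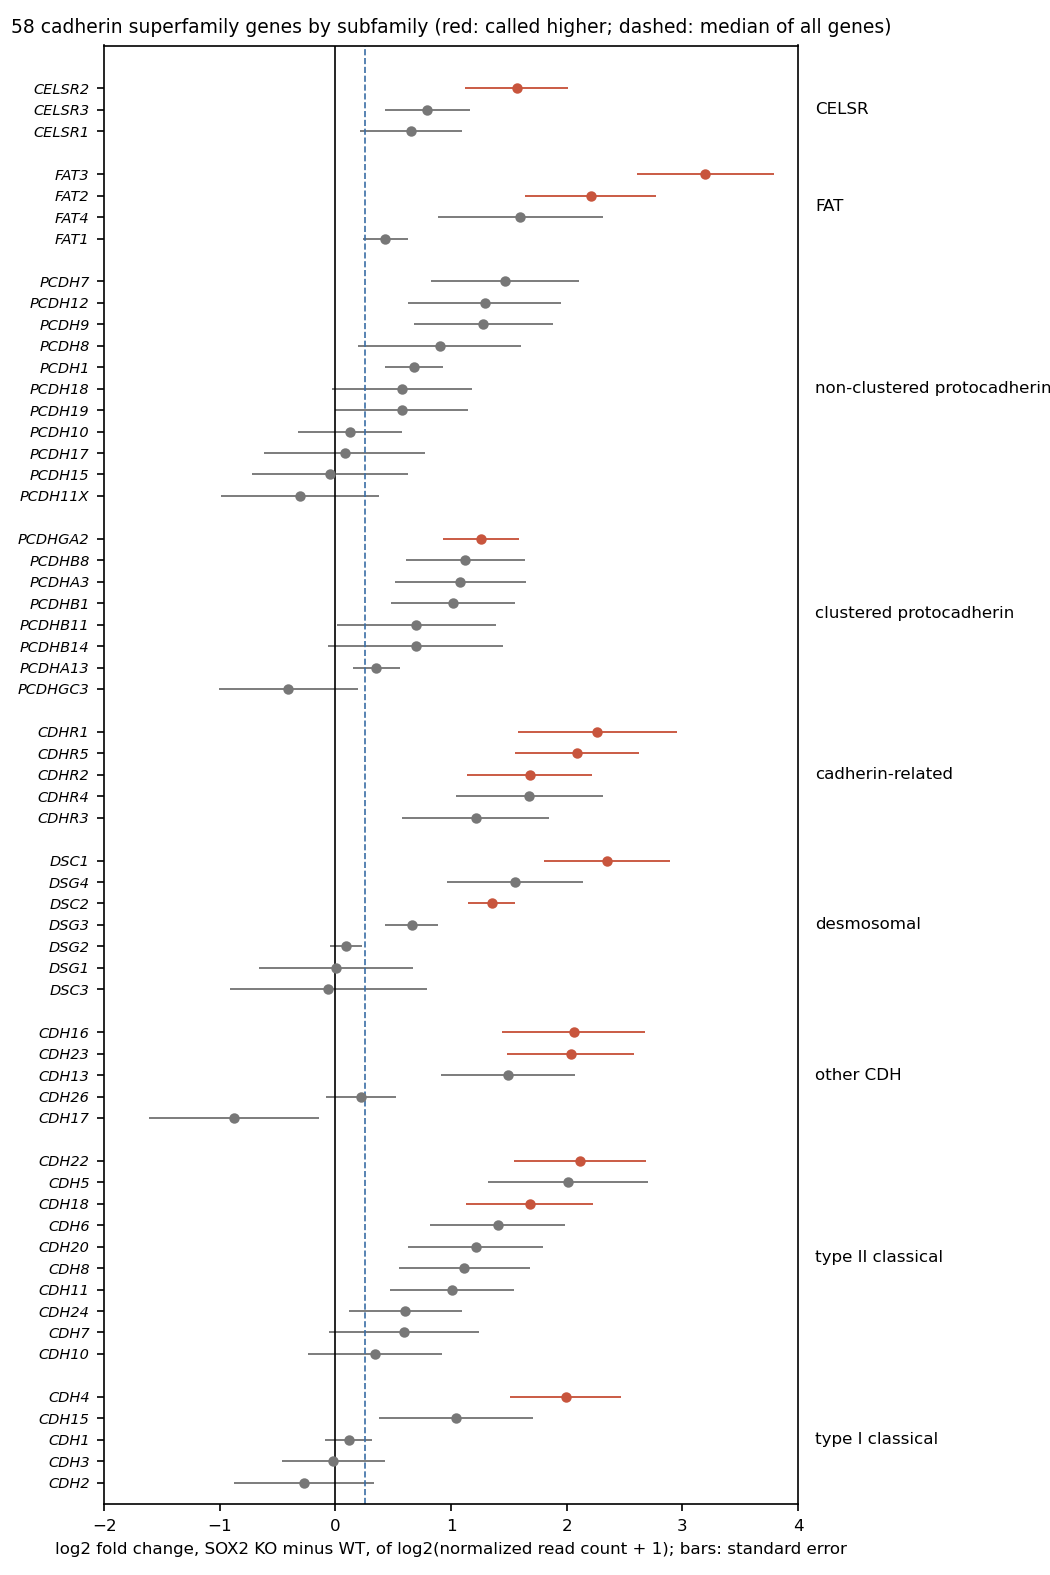
Log2 fold changes of the 58 cadherin superfamily genes (horizontal axis, *SOX2* KO minus WT, on log2(normalized read count + 1)), in 9 subfamilies, with bars of 1 standard error. The 14 genes called higher are red, and 51 of the 58 points lie to the right of 0. The dashed line marks the median of all tested genes at 0.25. Over all genes with a mean of 1 to under 10, the range of 39 members, the median was 0.93.

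The share called higher was set beside that of genes with a like number of reads, since genes with few reads were called higher more often in the whole table. Among members with a mean of 1 to under 10, 7 of 39 (17.9%) were called higher, near the 14.1% of all genes in this range. Among those with a mean of 10 to under 100, the count was 6 of 14 (42.9%), beside 6.76% of all genes. Of the 5 members with a mean of at least 100, 1 was called (20%), beside 2.29%. The median log2 fold changes of the 3 ranges were 1.08, 1.03 and 0.43 for the members and 0.93, 0.04 and -0.11 for all genes. The 6 called genes of the middle range were *CDH23*, *CDHR2*, *CELSR2*, *FAT2*, *FAT3* and *PCDHGA2*. The ranges use the mean over all 10 embryos, so higher levels in *SOX2* KO embryos can themselves lift a gene into a higher range. The WT means of *CDH23*, *CDHR2*, *FAT2* and *FAT3* were 7.55, 4.55, 4.67 and 1.32, under this range. Those of *CELSR2* and *PCDHGA2* were 11.9 and 26.4. The share called in this range is therefore a description only.

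**Figure D2:**
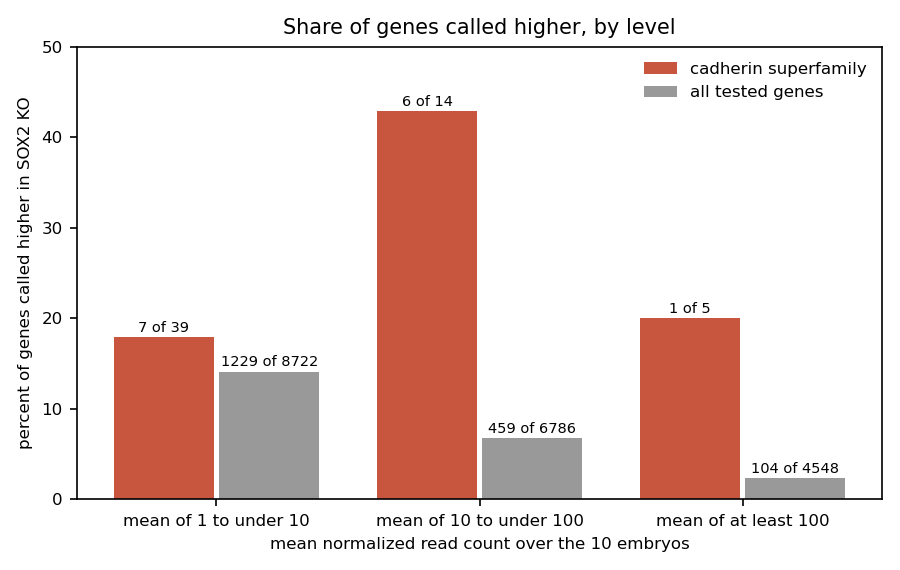
Percent of genes called higher in *SOX2* KO (vertical axis), for the cadherin superfamily (red) and all tested genes (grey), with the counts above the bars. The 3 ranges are of the mean normalized read count over both groups, so *SOX2* KO levels help to place a gene. The members stand at 17.9%, 42.9% and 20%, and all genes at 14.1%, 6.76% and 2.29%.

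The lowest adjusted p of the 58 members was that of a desmosomal cadherin. *DSC2* (desmocollin 2), the desmocollin of simple epithelia, was at 306, 233, 177, 374 and 344 normalized read counts in nc1 to nc5, and at 744, 507, 643, 794 and 917 in ko1 to ko5. Every *SOX2* KO embryo lay above every WT embryo, as for 9 of the 58 members (15.5%) and 6.41% of all genes, while 0 members and 2.76% of all genes lay below. Its mean rose from 287 ± 80.9 (SD, n = 5) to 721 ± 155 (n = 5), a log2 fold change of 1.35 (SE 0.20, limma adjusted p = 0.000327), and the call held in every alternative.

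*DSG2* (desmoglein 2), the usual partner of *DSC2* in such epithelia, had 624, 519, 485, 558 and 572 in WT and 588, 581, 555, 638 and 570 in *SOX2* KO embryos. The groups overlapped almost fully, and the log2 fold change was 0.09 (95% confidence interval -0.19 to 0.38, limma adjusted p = 0.674), with a sign that turned under equal totals. The embryos therefore had 0.515 ± 0.122 *DSC2* reads per *DSG2* read in WT and 1.23 ± 0.264 in *SOX2* KO (SD, n = 5 each). This ratio, chosen after the values of both genes were seen, did not overlap between the groups, and is given as a description without a test.

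The remaining desmosomal genes are known mostly from stratified epithelia. *DSC1* had 1 read in nc3 and none in the other WT embryos, and 8.91, 2.64, 8.14, 1.64 and 6.92 normalized read counts in ko1 to ko5. It was called higher (log2 fold change 2.35, limma adjusted p = 0.00944), and the 25 *SOX2* KO reads against 1 WT read give a ratio of 32.5 with an exact 95% counting interval of 5.31 to 1332. *DSG3* had 125, 89.0, 63.6, 66.8 and 135 in WT and 175, 137, 98.8, 182 and 148 in *SOX2* KO embryos. The *SOX2* KO embryos other than ko3 lay above the highest WT embryo, but *DSG3* did not pass the test (0.66, limma adjusted p = 0.0595). *DSC3* reached 42.0 in nc4 and 0 to 5.97 in the other WT embryos, and its 0 to 11.1 in *SOX2* KO embryos overlapped them (-0.06, limma adjusted p = 0.969). *DSG1* and *DSG4* stayed under 13 in every embryo and were not called. Sorted by start position in RefSeq (assembly ARS-UCD2.0), the 7 come as *DSG2*, *DSG3*, *DSG4*, *DSG1*, *DSC1*, *DSC2* and *DSC3*. Whether other genes lie between them was not checked. The subfamily summed to 755 to 1063 in WT, against 1233 to 1659 in *SOX2* KO embryos. The mean of this sum went from 955 to 1480, with *DSC2* from 287 to 721 making up most of the rise. The mean of *DSG2* went from 552 to 586, and those of *DSC3* (10.2 to 4.87) and *DSG1* (7.26 to 6.10) were lower.

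Binding partners and regulators of cadherins were compared in the same fit, as a list of 52 genes of which 48 were in the table. Of these, 6 (12.5%) were called higher and 0 lower, near the 8.93% of all genes called higher, and their median log2 fold change of 0.31 was near the 0.25 of all genes. *VEZT*, *TWIST1*, *TWIST2* and *ANKS4B* were not analysed here.

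In the desmosomal plaque, both calls were plakophilins. *PKP1* (plakophilin 1) rose from 2.29, 10.4, 2.98, 6.99 and 3.54 in WT to 24.5, 46.2, 23.3, 18.1 and 49.6 in *SOX2* KO embryos, without overlap (log2 fold change 2.47, limma adjusted p = 0.00182). *PKP3* was called at 1.09 (limma adjusted p = 0.0496), a call that most alternatives ended. *DSP* (desmoplakin) had 634, 356, 486, 504 and 397 in WT and 670, 606, 631, 585 and 1154 in *SOX2* KO embryos. Its adjusted p was 0.0458, but its log2 fold change of 0.59 is under the fold threshold. *JUP* (plakoglobin) had 802 to 1284 in WT, against 1214 to 2009 in *SOX2* KO embryos (0.45, limma adjusted p = 0.0851), and *PKP2* differed by 0.22 (limma adjusted p = 0.344). Of the keratins listed as trophectoderm markers, *KRT19* was called higher (1.40, limma adjusted p = 0.00793) and was the 1 gene of 9 on that list that was called. *KRT18* was also higher, by 0.73 (limma adjusted p = 0.0394), but under the fold threshold. Its lowest *SOX2* KO embryo (12397) lay above its highest WT embryo (10868), while *KRT8* overlapped between the groups (0.36, limma adjusted p = 0.352). On the same list *TFAP2C* differed by -0.49 (limma adjusted p = 0.0352), under the fold threshold, and *CDX2* and *GATA3* were not called. No defining gene of the list was at 0 in any embryo. The part of the trophectoderm level in the *DSC2* result was not tested.

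**Figure D3:**
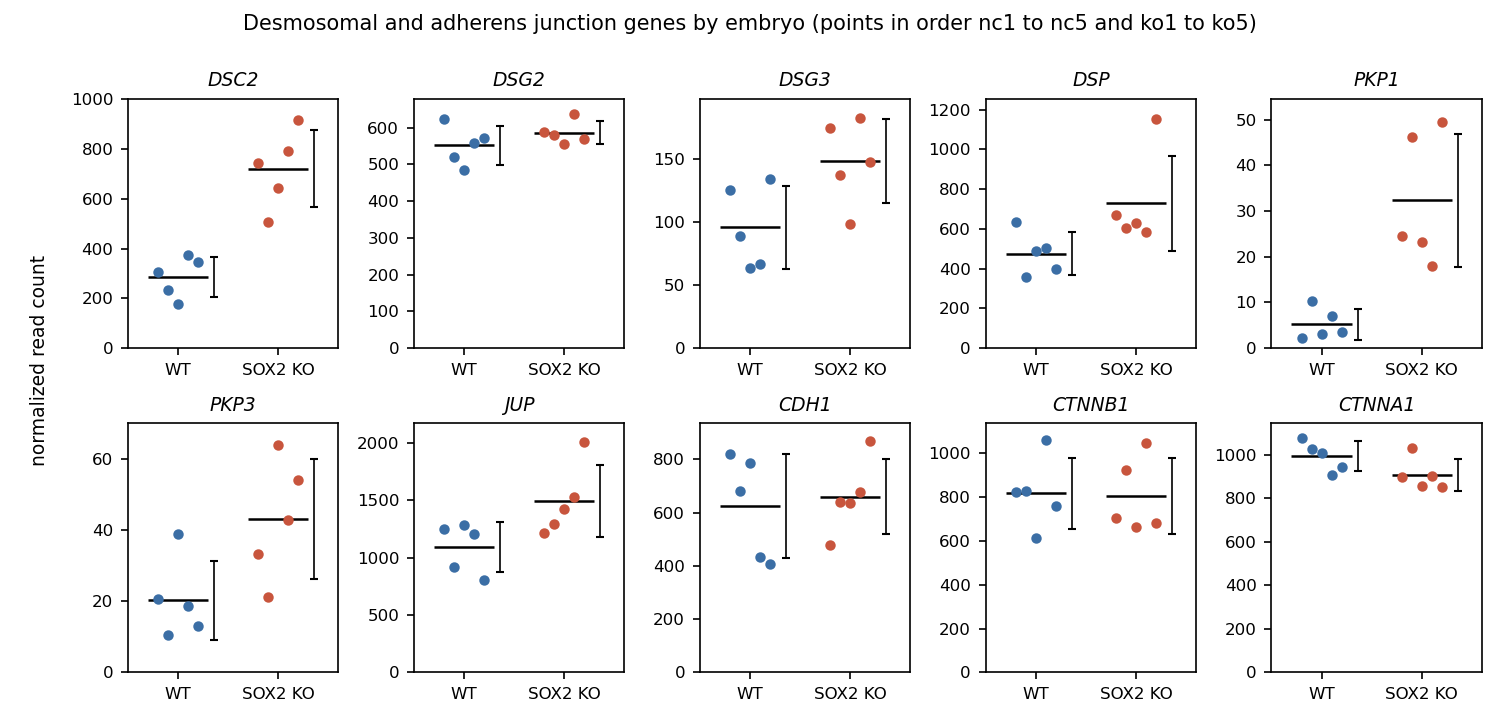
Normalized read counts (vertical axes, each from 0) of desmosomal and adherens junction genes in the 5 WT (blue) and 5 *SOX2* KO (red) embryos, with lines at the mean and bars of 1 SD. *DSC2* (177 to 374 against 507 to 917) and *PKP1* separate the groups, whereas *DSG2*, *CDH1*, *CTNNB1* and *CTNNA1* overlap.

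*CDH1*, the classical cadherin of compaction, was not called. It had 819, 682, 788, 432 and 407 normalized read counts in WT and 478, 642, 636, 677 and 868 in *SOX2* KO embryos. The 2 groups covered the same range, and the log2 fold change was 0.11 (95% confidence interval -0.31 to 0.54, limma adjusted p = 0.734), turning to -0.01 under equal totals. The interval lies within a 2-fold change in either direction.

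*CDH3* (P-cadherin), which directly neighbours *CDH1* in RefSeq's gene order, had 9.16, 41.5, 53.7, 30.3 and 7.67 in WT and 20.04, 22.4, 23.3, 16.4 and 27.7 in *SOX2* KO embryos. WT embryos spread more widely than *SOX2* KO embryos, on both sides of them, and the log2 fold change of -0.02 (limma adjusted p = 0.982) turned sign under rescaling by median log ratios and under sample weights. *CDH2* (N-cadherin) had 1.55 to 14.8 in WT, against 0.821 to 10.4 in *SOX2* KO embryos (-0.27, limma adjusted p = 0.786), and *CDH15* (M-cadherin of muscle) was not called. *CDH4* (R-cadherin) was the type I gene that was called, with 3.05, 2.97, 4.97, 3.11 and 0.590 in WT and 17.8, 11.9, 12.8, 11.5 and 13.8 in *SOX2* KO embryos. All *SOX2* KO embryos lay above all WT embryos and close to each other (1.99, SE 0.48, limma adjusted p = 0.0117). The call rests on 16 WT and 62 *SOX2* KO reads.

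The catenins that carry classical cadherins were not called. *CTNNB1* (beta-catenin) had 614 to 1059 in WT, against 660 to 1047 in *SOX2* KO embryos (log2 fold change -0.03, limma adjusted p = 0.932). *CTNNA1* (alpha-catenin) differed by -0.13 (limma adjusted p = 0.537) and *CTNND1* (p120-catenin) by -0.24 (limma adjusted p = 0.30). Nectins, which lie beside cadherins at adherens junctions, gave 0 calls among 4 by limma, DESeq2 or edgeR, with 1 gene higher at an unadjusted p of at most 0.05. The repressors of *CDH1* in the table, *SNAI1*, *SNAI2*, *ZEB1* and *ZEB2*, gave 0 calls among 4 in limma, DESeq2 and edgeR, and 0 at an unadjusted p of at most 0.05. *FURIN*, a convertase known to cleave the prodomain of cadherin precursors, rose from 169, 68.2, 143, 193 and 81.5 to 209, 267, 324, 273 and 330 (1.19, limma adjusted p = 0.00455). No *SOX2* KO embryo was as low as any WT embryo, and the call was lost without nc2.

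Type II classical cadherins are best known from neurons, vessels and mesenchyme, and all 10 had few reads. Their summed normalized read counts were 8.90 to 26.8 in WT, against 23.8 to 86.8 in *SOX2* KO embryos, with ko1 and ko5 highest. The groups overlapped in nc3 and ko4. *CDH22* had no read in any WT embryo and 3.34, 1.32, 4.65, 0.821 and 13.8 in ko1 to ko5. It was called higher (limma adjusted p = 0.0205), at least 1.73-fold when each WT library is set to a floor of 3 reads. *CDH18* likewise had no WT read, and had 4.45, 0, 1.16, 4.11 and 4.61 in ko1 to ko5. Its call (limma adjusted p = 0.0472; at least 1.04-fold over the same floor) was not made by DESeq2 (adjusted p = 0.0526). It was lost in 9 of the 10 fits without 1 embryo and kept only without ko2, while the call of *CDH22* was lost only without ko5. These 2 genes had 21 and 14 reads over all *SOX2* KO embryos.

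*CDH5* (VE-cadherin of endothelium) had 0, 0, 6.96, 1.55 and 6.49 in WT and 27.8, 14.5, 8.14, 2.46 and 10.4 in *SOX2* KO embryos. The embryo ko4 fell among the WT embryos, and *CDH5* did not pass the test (log2 fold change 2.01, limma adjusted p = 0.0560). *CDH11* of mesenchyme differed by 1.0 (limma adjusted p = 0.198), with 7 and 15 reads, and *CDH24* by 0.61 (limma adjusted p = 0.405). The median log2 fold change of the type II genes was 1.16, or 0.90 with *CDH18* and *CDH22* at their bound, beside 0.93 over all genes with a mean of 1 to under 10.

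Among the other *CDH* genes, *CDH23*, known for the tip links of sensory hair cells, had 6.87, 2.97, 21.9, 3.11 and 2.95 in WT and 70.1, 13.2, 19.8, 13.1 and 43.8 in *SOX2* KO embryos. The embryo nc3 lay inside the *SOX2* KO range and ko1 and ko5 far above it, and the gene was called (2.03, limma adjusted p = 0.0210). *CDH16*, a kidney cadherin, had 0 to 2.98 in WT, against 1.32 to 13.8 in *SOX2* KO embryos and was called (2.06, limma adjusted p = 0.0328). The call of *CDH23* was lost without ko1 and without ko5, and that of *CDH16* in 7 of the 10 fits without 1 embryo (1.74 to 2.43). *CDH26*, an epithelial cadherin, had 98.4, 60.8, 119, 28.0 and 94.4 in WT and 102, 68.7, 89.5, 104 and 63.4 in *SOX2* KO embryos. The *SOX2* KO embryos lay within the WT range (0.22, limma adjusted p = 0.641). *CDH13* (T-cadherin), which is anchored by a lipid and lacks a cytoplasmic tail, was not called (1.49, limma adjusted p = 0.0848), and neither was *CDH17*, the member with the lowest log2 fold change (-0.88, limma adjusted p = 0.423).

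Cadherin-related genes summed to 2.33 to 16.9 in WT, against 23.0 to 74.6 in *SOX2* KO embryos. Of the 5, 3 (60%) were called higher, beside 8.93% of all genes and 14.1% of those with a mean of 1 to under 10. The called gene *CDHR2* had a mean of 10.8 over the 10 embryos, above that range. *CDHR1*, *CDHR4* and *CDHR5* had WT means of 0.597, 0.953 and 0.847, and passed the filter through the *SOX2* KO embryos. The share is therefore a description only. *CDHR2* and *CDHR5* encode the pair of proteins that link neighbouring microvilli at the brush border. *CDHR5* had 0.763, 1.48, 1.99, 0 and 0 in WT and 7.79, 3.96, 6.98, 4.11 and 9.22 in *SOX2* KO embryos, without overlap (2.09, SE 0.53, limma adjusted p = 0.0162). *CDHR2* had 7.63, 4.45, 6.96, 0.777 and 2.95 in WT and 36.7, 7.92, 17.4, 14.8 and 8.07 in *SOX2* KO embryos. The lowest *SOX2* KO embryo lay just above the highest WT embryo, and the call (1.68, limma adjusted p = 0.0442) was lost in 6 of the 10 fits without 1 embryo (1.32 to 1.89).

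*MYO7B*, the myosin of the same microvillar complex, rose from 1.53, 7.42, 3.98, 0 and 0.590 to 40.1, 9.24, 20.9, 9.04 and 36.9 (log2 fold change 2.87, limma adjusted p = 0.00606). Its groups did not overlap, while *USH1C*, the scaffold of the complex, was not called (0.80, limma adjusted p = 0.452). *CDHR1*, a photoreceptor gene, had 3 reads in nc3 and none in the other WT embryos, and 11.1, 10.6, 1.16, 0.821 and 17.3 in ko1 to ko5. It was called (2.26, limma adjusted p = 0.0351), with a ratio of reads of 15.1 (exact 95% counting interval 4.77 to 77.0), and lost the call in 7 of the 10 fits without 1 embryo (1.88 to 2.71).

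FAT genes gave 2 calls among 4 (50%), beside 8.93% of all genes called higher. *FAT3*, an atypical cadherin known from the shaping of neurons, had 0, 1.48, 1.99, 3.11 and 0 in WT and 46.8, 11.9, 14.0, 6.57 and 27.7 in *SOX2* KO embryos. All *SOX2* KO embryos lay above all WT embryos, and its log2 fold change of 3.20 (SE 0.59, limma adjusted p = 0.00228) was the highest of the 58 members, from 7 WT and 95 *SOX2* KO reads. *FAT2* had 1.53, 1.48, 10.9, 2.33 and 7.08 in WT and 41.2, 7.92, 20.9, 10.7 and 42.7 in *SOX2* KO embryos. Its groups overlapped in nc3, ko2 and ko4, and the call (2.21, limma adjusted p = 0.0167) did not hold without ko1 or without ko5.

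*FAT1*, the FAT gene with most reads here, had 334, 322, 231, 277 and 424 in WT and 387, 367, 524, 298 and 587 in *SOX2* KO embryos. The groups overlapped, and the log2 fold change was 0.43 (limma adjusted p = 0.130). *FAT4*, the receptor of the Dachsous ligands, was not called (1.6, limma adjusted p = 0.129). Its ligand *DCHS1*, a cadherin outside the symbol rule, rose from 3.05, 0, 0.994, 0 and 1.77 to 45.7, 18.5, 29.1, 11.5 and 13.8 (3.56, limma adjusted p = 0.000502). Every *SOX2* KO embryo lay above every WT embryo, and the call held in every alternative. *DCHS2* was not called (0.58, limma adjusted p = 0.367).

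CELSR genes encode the seven-pass cadherins of planar cell polarity. *CELSR2* had 3.05, 17.8, 16.9, 7.77 and 14.2 in WT and 64.6, 22.4, 31.4, 18.1 and 42.7 in *SOX2* KO embryos. Its lowest *SOX2* KO embryo lay just above its highest WT embryo, and it was called (1.57, SE 0.44, limma adjusted p = 0.0255), a call lost in 5 of the 10 fits without 1 embryo (1.2 to 1.77). *CELSR1* and *CELSR3* overlapped between the groups and were not called (0.65 and 0.79, limma adjusted p = 0.314 and 0.141). Of their polarity partners, *PRICKLE2* rose from 20.6, 5.93, 9.94, 20.2 and 8.85 to 50.1, 60.7, 57.0, 34.5 and 49.6 without overlap (1.98, limma adjusted p = 0.00137), in every alternative. *VANGL1*, *VANGL2*, *PRICKLE1*, *FZD3* and *FZD6* were not called.

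Protocadherins gave 1 call among 19 genes (5.26%), near or under the share of all genes called higher (8.93%, and 14.1% at a mean of 1 to under 10). Clustered protocadherins mark the identity of single neurons. Those of the alpha and gamma clusters share constant exons within a cluster, so that reads of one may be counted for another. *PCDHGA2* had 22.9, 19.3, 37.8, 25.6 and 26.6 in WT and 116, 59.4, 66.3, 24.6 and 87.6 in *SOX2* KO embryos. The embryo ko4 lay among the WT embryos and the others above them, and the gene was called (1.26, SE 0.33, limma adjusted p = 0.0187), but not without ko1 or without ko5. *PCDHA13* had 77.8, 68.2, 91.5, 69.2 and 63.2 in WT and 126, 84.5, 102, 66.5 and 100.3 in *SOX2* KO embryos, with overlap (0.35, limma adjusted p = 0.237). *PCDHB8* did not overlap between the groups, at 0.763 to 2.97 and 3.46 to 10.7, but did not pass the test (1.12, limma adjusted p = 0.135). The other 5 clustered genes reached at most 14.0 in any embryo and were not called.

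RefSeq places 27 coding genes from *PCDHA13* to *PCDHGC3*, both included, of which 18 carry only a LOC symbol that the rule does not take. Of these 18, 11 are in the table and were not counted as members. *CTCF*, a DNA-binding protein known to choose promoters in these clusters, had 255, 270, 270, 234 and 231 in WT and 149, 177, 163, 202 and 210 in *SOX2* KO embryos. All *SOX2* KO embryos lay below all WT embryos (-0.49, limma adjusted p = 0.0394), a difference under the fold threshold. The 11 non-clustered protocadherins gave 0 calls in limma, DESeq2 and edgeR and 3 (27.3%) at an unadjusted p of at most 0.05, near the 24.0% of all genes, with a sum of 81.6 to 126 in WT, against 121 to 222 in *SOX2* KO embryos. *PCDH1*, known from airway epithelium, had 96.2, 48.9, 76.6, 33.4 and 62.6 in WT and 85.7, 80.6, 106, 85.4 and 130 in *SOX2* KO embryos (0.68, limma adjusted p = 0.0737), and its groups overlapped.

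**Figure D4:**
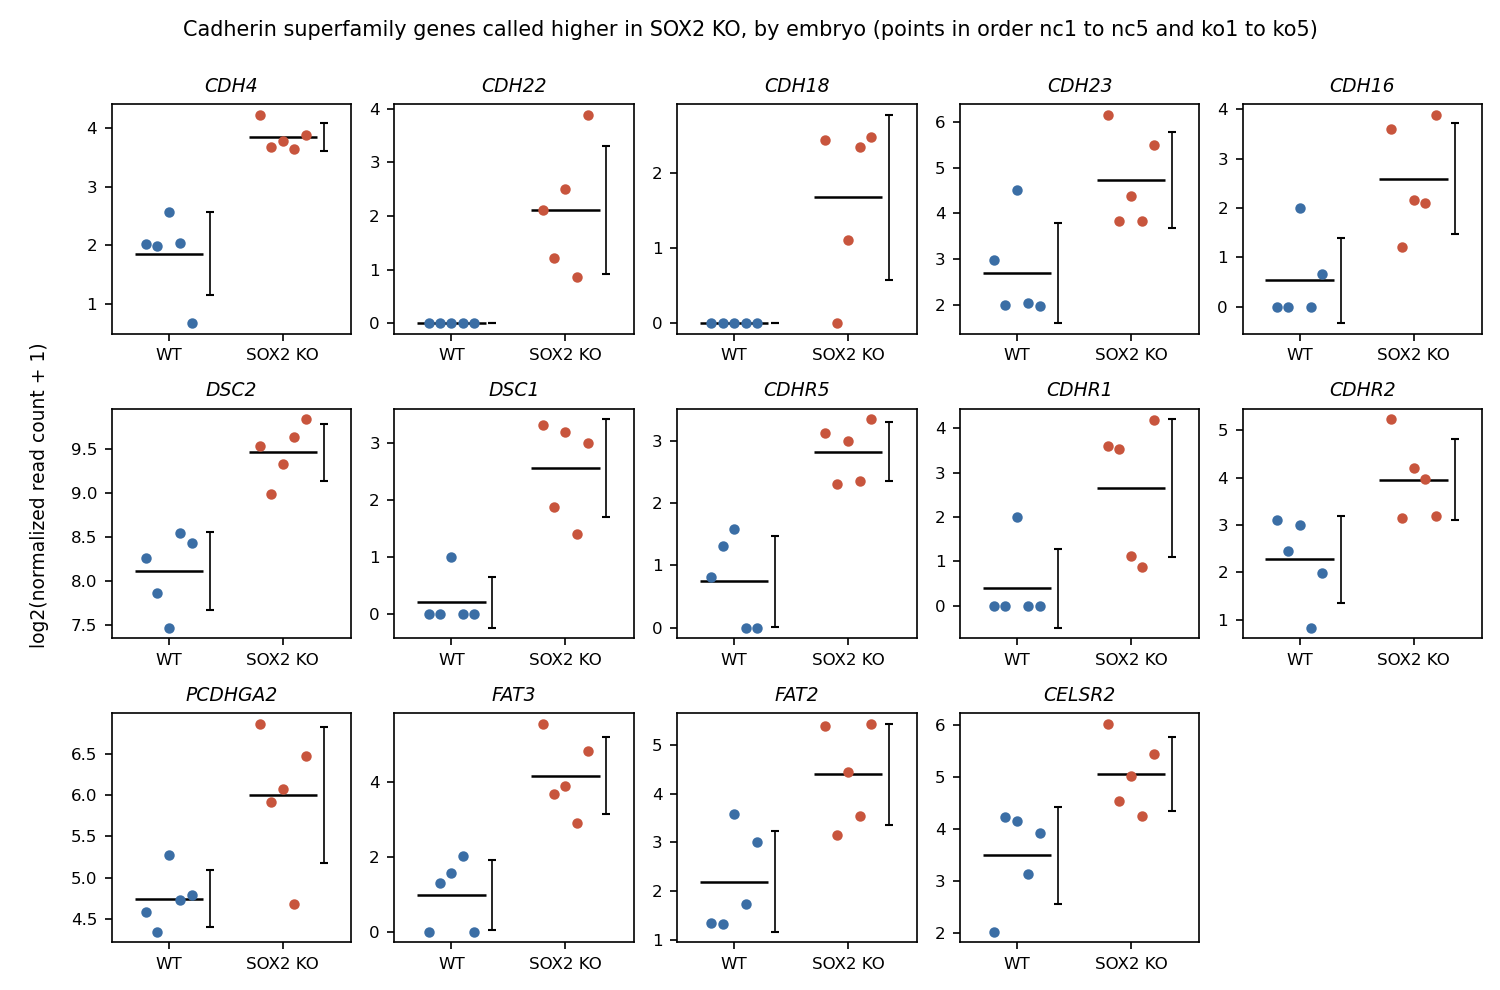
Log2(normalized read count + 1) (vertical axes, scaled per gene) of the 14 members called higher, in the 5 WT (blue, nc1 to nc5) and 5 *SOX2* KO (red, ko1 to ko5) embryos, with lines at the mean and bars of 1 SD. The embryos ko1 and ko5 are among the highest for most genes, as in *FAT2* (41.2 and 42.7), and nc3 is the highest WT embryo in *CDH23* (21.9).

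The number of members with a read was 40, 45, 52, 43 and 45 in WT and 58, 49, 54, 54 and 56 in the *SOX2* KO embryos. Thinned to the 2223670 reads of the smallest library, the expected numbers were 32.3, 37.8, 46.4, 35.0 and 38.7 in WT and 57.3, 43.4, 48.9, 45.4 and 53.0 in *SOX2* KO embryos. The groups overlapped in nc3, ko2 and ko4, and ko1 and ko5 were highest before and after thinning. The 39 members with a mean of 1 to under 10 had mean log2 values of 1.0, 1.21, 1.89, 1.28 and 1.31 in WT and 3.23, 1.67, 2.15, 1.81 and 2.81 in *SOX2* KO embryos. All 8722 genes of this range had 1.15, 1.12, 1.59, 1.02 and 1.32 in WT and 2.82, 1.70, 2.05, 1.44 and 2.51 in *SOX2* KO embryos. In both, ko1 and ko5 were highest and nc3 was the highest WT embryo. The part of this general level in the calls of the rarely read members was not tested.

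**Figure D5:**
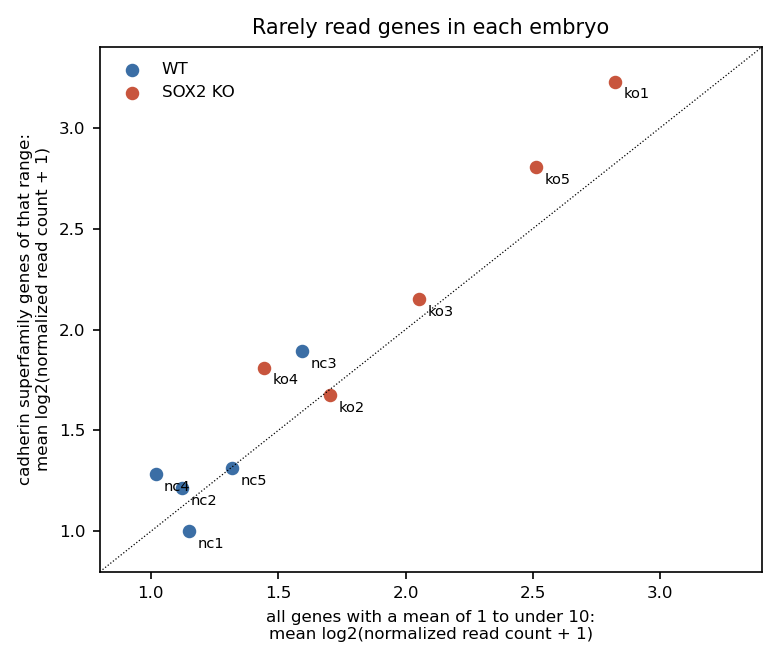
Mean log2(normalized read count + 1) of the 39 members with a mean of 1 to under 10 (vertical axis) against that of all 8722 genes of this range (horizontal axis), with 1 point per embryo and a dotted line of equality. The embryos ko1 (2.82 and 3.23) and ko5 (2.51 and 2.81) stand at the upper right, and the WT embryos reach at most 1.59 and 1.89, in nc3.

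Markers of cells other than the embryo's own were looked at beside these counts. Of the cumulus and granulosa genes in the table, 0 of 7 were called by limma, DESeq2 or edgeR and 2 were higher at an unadjusted p of at most 0.05, and their sum was 34.1 to 87.5 in WT, against 62.8 to 113 in *SOX2* KO embryos. The 2 were *HAS2*, at 0 to 1.55 in WT and up to 8.91 in *SOX2* KO embryos, and *VCAN*, at 0 to 4.13 in WT and up to 16.1. *FSHR*, *STAR* and *CYP19A1* had reads in every embryo, *FSHR* with 2.97 to 39.6 in WT, against 14.5 to 37.0 in *SOX2* KO. *AMH* and *FOXL2* had under 7 normalized read counts in every embryo and were at 0 in some embryos of each group. Oocyte genes gave 0 calls among 4 with the same tools (1 at an unadjusted p of at most 0.05), and sperm genes 0 among 2 (0 unadjusted). Of the embryo's own lineages, 4 of 8 epiblast genes (*NANOG*, *KLF17*, *PRDM14* and *ZFP42*) were called lower, against 1.16% of all genes. *POU5F1* (-0.75, limma adjusted p = 0.00631) and *SALL4* (-0.63, limma adjusted p = 0.0257) stayed under the fold threshold, and *TDGF1* and *GDF3* were not called. The primitive endoderm gene *PDGFRA* was called lower. *GATA4* and *GATA6* were not called, nor was *FOXA2*, which lay in the other direction (1.53, limma adjusted p = 0.081). The part of these lineages in the cadherin results was not tested.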

How the data were processed

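Single early blastocysts were sequenced by Smart-seq2, 5 WT and 5 *SOX2* KO. Per the labels and the study's methods, the authors used Trimmomatic for trimming, HISAT2 for mapping to ARS-UCD1.2, featureCounts for counting and DESeq2 for size factors. The deposited values are thus a normalized signal, read counts divided by the size factor of each embryo. The annotation release, strand setting and treatment of reads shared between genes are not given in the sources used here, so reads of paralogs, neighbours and antisense genes cannot always be told apart. Within a tolerance of 0.001, 201120 of 201120 values (100%) were multiples of what 1 read is worth in that embryo, which gave back the reads. On these reads DESeq2 called 1836 genes higher and 238 lower, and edgeR 1686 and 299. The lowest total of a gene was 11 reads over the 10 embryos, and genes under it were not analysed here.

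Groups were compared with limma 3.58.1 (lmFit, then eBayes with a trend) without covariates, with Benjamini-Hochberg adjustment over all 20056 genes with a mean of at least 1. DESeq2 1.42.0 and edgeR 4.0.16 (R 4.3.3) and other pseudocounts, scalings, filters and weights were alternatives, as was leaving out each embryo. Tables were made with Python 3.11.15, numpy 2.4.6, pandas 2.3.3, scipy 1.17.1 and matplotlib 3.10.9, and the tests were tested on simulated data. Counting intervals are exact, at 95%, and like the floor of 3 reads cover counting error only. The *SOX2* KO columns were assigned to their group by name, without replicate numbers.

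Members, partner genes and marker lists were chosen with earlier results of these data known. Named genes are every called member, the member of each subfamily with the highest mean and that with the lowest p, 13 members named in any case, 5 junction partners, every called partner, and markers. Other genes named for completeness were chosen after their values were seen. No sequence is shown, since no genome of this build was used here. RefSeq (ARS-UCD2.0) held 54 of the 58 symbols and served for gene order alone. One result of the primitive endoderm markers is not reported here.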

Additional observations from a re-analysis of the deposited data

Results flagged for a closer look

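In 102 groups of 5 embryos, from the named genes and the subfamily sums, 1 embryo stood far from the others of its group in 8 cases. For normally distributed values, chance gives about 1 in 20 groups, or 5.1 in all. Where all other embryos are at 0, as for *DSC1* and *CDHR1*, a lone embryo with a read is always flagged. The expected number does not hold for such low counts. Of the 8 cases, 5 were in nc3. *CDH23* was 21.9 there and 2.95 to 6.87 in the other WT embryos. *CDH16* was 2.98 against 0 to 0.590, *CDHR1* was 2.98 against 0, and *DSC1* was 0.994, a single read, against 0. The summed clustered protocadherins were 154 in nc3 and 104 to 109.9 in the other WT embryos. In nc4, *DSC3* was 42.0 against 0 to 5.97. Among *SOX2* KO embryos, *CTNNA1* was 1034 in ko2 against 853 to 901, and *DSP* was 1154 in ko5 against 585 to 670.3.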

How the results depend on the processing

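The count of 14 members called higher was 9 with a pseudocount of 5, 7 after quantile normalization, 7 among the 30 members with a mean of at least 5, and 1 with both ko1 and ko5 left out, an alternative chosen after seeing the data. Leaving out 1 embryo gave 5 (without ko5) to 18 (without ko4). Sample quality weights gave 21, and the other alternatives 12 to 14. No alternative called a member lower. Of the members called in every fit without 1 embryo, *CDH4* and *CDHR5* lost the call after quantile normalization, *CDHR5* and *DSC1* with a pseudocount of 5, and all but *DSC2* without ko1 and ko5. Among all genes, higher calls made up 88.5% of calls, but 58.2% after quantile normalization and 63.0% without ko1 and ko5. The median of all genes was 0.25, 0.14 with equal totals, 0.34 with median log ratios and -0.02 after quantile normalization.

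Signs turned in genes that were not called. With equal totals, *CDH1* was -0.010 and *DSG2* -0.032. With median log ratios, *CDH3* was 0.078, *DSC3* 0.0079 and *CTNNB1* 0.076. With weights, *CDH3* was 0.36 and *DSC3* 0.27. After quantile normalization, *CDH11* was -0.042 and *CTNNB1* 0.058. A pseudocount of 0.1 gave *DSC3* 0.054. Without ko1 and ko5, *CELSR1* was -0.0017 and *CTNNB1* 0.10. Leaving out 1 embryo gave -0.026 to 0.23 for *CDH1*, -0.59 to 0.10 for *CDH2*, -0.37 to 0.29 for *CDH3*, -0.11 to 0.40 for *CDH26*, -0.60 to 0.76 for *DSC3* and -0.13 to 0.073 for *CTNNB1*. The cause of these differences was not tested. No paired analysis was possible because the *SOX2* KO columns carry no replicate numbers of the labels. Depth limits the genes with a mean under 10, where single reads decide whether an embryo is at 0.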
